A study of Mus musculus with 4 samples.

Results

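Forkhead genes were followed in RNA sequencing libraries made from mouse forelimb buds with and without a working Shh gene. The family was taken as every measured gene whose symbol is Fox, a class letter from a to s and a number. This gave 37 of the 17712 genes in the table, in 17 classes, and Foxred1, Foxred2 and Foxl2os stayed outside it. Of the 37, 15 reached 1 CPM (the deposited unit, reads scaled to library size) in at least 2 of the 4 libraries and are called expressed here, and the other 22 are described by their reads. The wild-type group held 2 libraries and the Shh null group 2. Both groups came from littermates of the Swiss Webster stock, which is outbred. The embryos had 33 to 35 somites, at E10.25 by the age label and E10.5 by the source label. The labels do not describe the null allele or how many embryos went into a library, and the design text calls the replicates technical, so every p-value here measures the spread between libraries, which may be technical.

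Forkhead proteins bind DNA through a winged-helix domain, and their classes have separate tasks in the embryo. FOXA proteins open chromatin in the endoderm and floor plate, FOXC and FOXF proteins act in mesoderm and mesenchyme, FOXM1 drives the genes of mitosis, and FOXO proteins are held out of the nucleus when insulin or growth factor signals are active. FOXP proteins are mostly repressors that work as dimers with each other. Sonic hedgehog, the signal made at the posterior margin of the limb bud, is known to sustain several forkhead genes in the mesenchyme of other organs, Foxf1, Foxf2 and Foxl1 among them.

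The libraries held 18456502 to 29620468 reads assigned to genes. A count of 0 allows a level of up to 3 reads, which was worth 0.105 to 0.165 CPM depending on the library. Shh was at 11.4 and 7.88 CPM in wild type against 3.15 and 2.42 CPM in Shh null, and the hedgehog readouts Gli1, Ptch1 and Hhip fell (log2 fold changes −3.72, −2.21 and −1.65; limma adjusted p = 5.77e-06, 6.18e-05 and 0.00218). Without Shh null 1 the Hhip call ended (−1.54, adjusted p = 0.0518). Of 7 markers of limb mesenchyme, 5 rose (Prrx1, Prrx2, Twist1, Lhx2 and Lhx9), and the summed level of the 7 was 1032 and 1074 CPM in wild type against 1579 and 1545 CPM in Shh null. All 5 calls ended when either Shh null library was left out, with log2 fold changes of 0.45 to 0.77 and adjusted p of 0.0538 to 0.296. With no filter the calls of Prrx1, Prrx2 and Lhx2 ended (adjusted p = 0.087, 0.0514 and 0.0638), without wild type 1 those of Prrx1 and Lhx2 (0.107 and 0.0734). The Prrx1 call also ended under the replicate block (0.0661). The groups also differed in sex-linked RNA, with Xist at 188 ± 52.0 and 495 ± 38.7 CPM and the Y-linked Ddx3y at 113 ± 9.37 and 40.7 ± 2.30 CPM (mean ± SD, n = 2). In bulk tissue, a change in the number of cells of a type and a change in RNA per cell cannot be told apart.

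Of the 15 expressed forkhead genes, 14 had log2 fold changes below 0.5 in size, as did 93.2% of all tested genes. Foxp1 rose in Shh null, and it was the 1 member called among the 15 tested, with 0 called lower and 14 not called (limma on log2(CPM + 1), Benjamini-Hochberg over 13224 genes). Of all tested genes, 1.24% were called higher and 1.24% lower. A single call among 15 genes is too few to set the family apart from that background. By edgeR 1 member was higher and 0 lower, against 1.28% and 1.21% of all tested genes, and by DESeq2 1 and 0, against 1.83% and 2.21%. At an unadjusted p under 0.05, which 18.5% of all tested genes had, limma had 2 members higher (Foxp1 and Foxp2) and 1 lower (Foxk2). Both Shh null libraries were above both wild-type ones in 6 members and below them in 5, against 25.1% and 25% of all tested genes. Of the 15 log2 fold changes, 8 were above 0 and 7 below, with a median of 0.05 against −0.000478 over all tested genes. The median size, regardless of sign, was 0.25 for the members and 0.15 for all tested genes. All 15 were above 1 CPM in every library, between 1.87 and 93.0 CPM, so none passed the filter through 1 genotype alone.

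**Figure D1:**
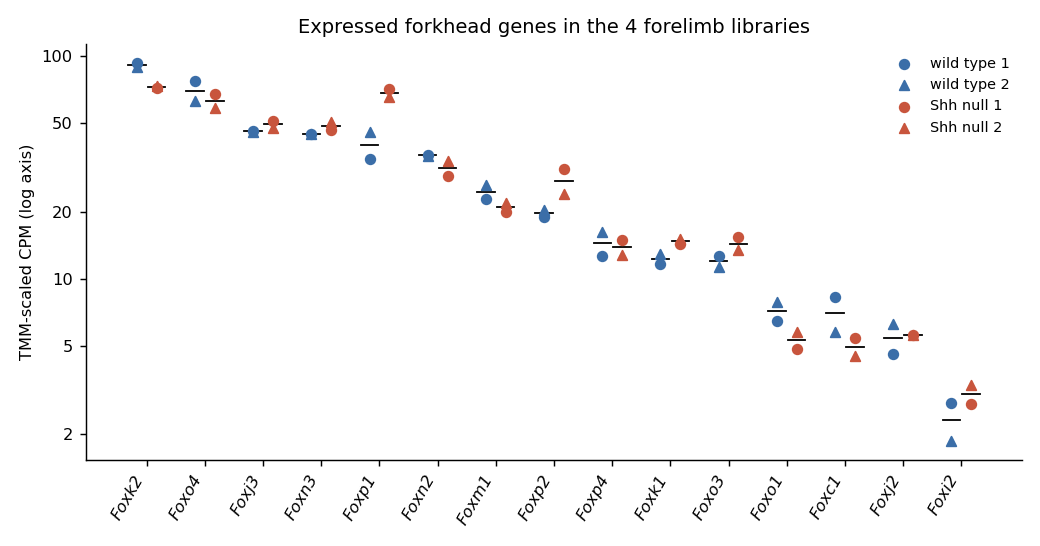
Level of the 15 expressed forkhead genes in TMM-scaled CPM (log axis), ordered by their wild-type mean. Blue marks are wild type and red marks Shh null, circles are replicate 1, triangles replicate 2 and bars the means of 2 libraries. Foxk2 led the family at 71.5 to 93.0 CPM, and the Foxp1 marks of Shh null (70.7 and 65.2 CPM) lie above those of wild type (34.3 and 45.6 CPM).

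Foxp1 encodes a repressor of the FOXP class that is known from heart, lung, blood and motor neuron development. The gene lies on chromosome 6 from 98925338 to 99522721 on the minus strand (mm10 gene models of GENCODE M21). It was measured at 34.3 CPM in wild type 1 and 45.6 CPM in wild type 2, and at 70.7 CPM in Shh null 1 and 65.2 CPM in Shh null 2. Both Shh null libraries were above both wild-type libraries, and the gap between the groups was wider than the one between the wild-type libraries. The means of 39.9 ± 7.95 and 68.0 ± 3.84 CPM (SD, n = 2) differed 1.70-fold, a log2 fold change of 0.76 ± 0.14 (SE; limma adjusted p = 0.0213; edgeR 0.0218; DESeq2 0.000268). Leaving out either Shh null library ended the call: the value was 0.71 without the first (adjusted p = 0.261) and 0.82 without the second (adjusted p = 0.104). It also ended with no filter on low values (adjusted p = 0.0533). The value was 0.57 without wild type 1 (adjusted p = 0.0179) and 0.96 without wild type 2 (adjusted p = 6.26e-06). Each of these fits leaves 1 library in a group, which is assumed to vary like the libraries of the other group. The 5 mesenchyme markers that rose had log2 fold changes of 0.50 (Prrx1), 0.67 (Prrx2), 0.69 (Twist1), 0.59 (Lhx2) and 0.65 (Lhx9), and their part in the rise of Foxp1 was not tested. GENCODE places other gene models on the same strand over Foxp1, and their reads could not be separated here. Among them is the protein-coding model Gm20696 (99257484 to 99666797), which extends beyond the gene.

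The RefSeq table used here has 3 Foxp1 start sites (GRCm38.p6, the same coordinates as mm10), and the reads do not say which were used. The stretches before the inner start sites are printed because they differ most in CpG content, and the outer one is described below them. The sequences run 5′ to 3′ on the minus strand and leave out bases that any GENCODE exon covers. Capitals mark the forkhead core, searched on both strands as TGTTTAC, as TGTTTAT, as TGTTTGC and as TGTTTGT, words chosen after the sequences had been seen and able to overlap each other.
Foxp1, chr6:99028314-99028548: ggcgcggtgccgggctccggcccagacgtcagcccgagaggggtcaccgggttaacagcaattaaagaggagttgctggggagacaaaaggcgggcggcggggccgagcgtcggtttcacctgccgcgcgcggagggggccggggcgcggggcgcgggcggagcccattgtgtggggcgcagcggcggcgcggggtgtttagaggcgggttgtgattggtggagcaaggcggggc
Foxp1, chr6:99266533-99266765: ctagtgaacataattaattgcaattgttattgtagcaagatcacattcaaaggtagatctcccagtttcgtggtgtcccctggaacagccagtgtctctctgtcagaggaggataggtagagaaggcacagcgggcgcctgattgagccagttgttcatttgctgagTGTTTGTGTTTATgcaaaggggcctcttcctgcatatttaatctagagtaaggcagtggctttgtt
The former stretch, 235 bases long, holds 30 CpG dinucleotides and 0 matches to the core. The latter, 233 bases long, holds 3 CpG dinucleotides and 2 overlapping matches, which begin 83 and 77 bases before the start site. The 250 bases before the outer start site, of which 169 are exon, hold 11 CpG dinucleotides. They also hold 2 matches, which begin 167 and 92 bases before that start site. Over the 250 bases before all 32851 start sites in the table, 15.7% hold at least 1 match. A match describes the letters and is not a binding site.

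The other FOXP genes did not pass the test. Foxp2, known for its part in speech and in lung and brain development, was at 18.8 and 20.4 CPM in wild type against 31.0 and 23.9 CPM in Shh null. The groups did not overlap, as in 50.2% of all tested genes, and the difference (log2 fold change 0.46 ± 0.15 SE; limma adjusted p = 0.146) was not called under any of the 11 alternatives (adjusted p from 0.0913 to 0.621). Foxp4, a partner of both in lung epithelium, was at 12.7 and 16.1 CPM in wild type against 14.9 and 12.7 CPM in Shh null, and its groups overlapped. Foxp1 was 2.71 and 2.82 times the Foxp4 CPM in the wild-type libraries and 4.75 and 5.13 times in the Shh null libraries, a ratio that was not tested. Foxp3, the regulator of regulatory T cells, had 11 reads in each wild-type library and 11 and 16 in Shh null. Its gene overlaps Ccdc22 (35.5 ± 0.153 and 37.0 ± 2.11 CPM) on the opposite strand, and the counting is not known to have used strand. Corrected for length, as CPM per kb of exon, the FOXP class made up 8.67% and 11.5% of the forkhead total in wild type against 14.96% and 13.6% in Shh null. The summed CPM of all 37 genes was 437 in each wild-type library and 453 and 439 in Shh null.

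Foxk2 and Foxk1 encode repressors that act on autophagy and glucose metabolism. Foxk2, the most abundant member by CPM, was at 93.0 and 89.1 CPM in wild type against 71.5 and 73.5 CPM in Shh null. These groups did not overlap and each was tight, with means of 91.0 ± 2.77 and 72.5 ± 1.36 CPM (SD, n = 2; log2 fold change −0.32 ± 0.10 SE). The difference did not pass over all genes by limma, edgeR or DESeq2 (adjusted p = 0.121, 0.120 and 0.116). Foxk1 was at 11.6 and 12.9 CPM in wild type against 14.3 and 15.1 CPM in Shh null, also without overlap and in the opposite direction (0.25 ± 0.14, adjusted p = 0.383). Groups did not overlap in 50.2% of all tested genes. The ratio of Foxk2 to Foxk1 in CPM, which was not tested, was 8.01 and 6.91 in wild type against 4.99 and 4.87 in Shh null.

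The FOXO genes, targets of insulin and AKT signalling, were not called. Foxo4, on the X chromosome, had the highest level per length in the family, 20.03 CPM per kb in wild type and 18.0 in Shh null. It was at 77.1 and 62.5 CPM in wild type against 67.4 and 58.2 CPM in Shh null, with overlapping groups (adjusted p = 0.583), in libraries whose sex-linked RNA differed by group as given above, the part of which was not tested. Foxo3 was at 12.6 and 11.3 CPM in wild type against 15.3 and 13.4 CPM in Shh null (log2 fold change 0.25 ± 0.15 SE; limma adjusted p = 0.405). Foxo1 was at 6.46 and 7.88 CPM in wild type against 4.81 and 5.76 CPM in Shh null (−0.38 ± 0.18, adjusted p = 0.288). The values of Foxo3 were higher in both Shh null libraries and those of Foxo1 lower. Neither difference was called, and 50.2% of all tested genes had groups that did not overlap. Foxo6, a brain member, had 3 to 6 reads in each library. Of 17 tested genes listed as FOXO targets, 3 rose, 0 fell and 14 were not called (2 higher by edgeR, 3 by DESeq2; 4 higher and 3 lower at an unadjusted p under 0.05), with a median log2 fold change of −0.03. Those that rose were Txnip, which restrains glucose uptake (40.8 ± 1.63 to 60.8 ± 1.81 CPM), Sesn3, a sestrin that dampens TOR signalling (32.9 ± 1.30 to 46.6 ± 0.37 CPM), and Ccng2, an atypical cyclin of arrested cells (131 ± 4.36 to 176 ± 2.91 CPM; SD, n = 2). Their limma adjusted p-values were 0.0234, 0.0499 and 0.0484. The Sesn3 call ended under 7 of the 11 alternatives and the Ccng2 call under 8, the replicate block among them (adjusted p = 0.064 and 0.0786), while the log2 fold changes ran from 0.45 to 0.53 and from 0.39 to 0.52. Leaving out Shh null 1 (0.53, adjusted p = 0.232) or Shh null 2 (0.59, adjusted p = 0.103) ended the Txnip call.

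Foxm1, the activator of G2 and mitosis genes, was at 22.7 and 26.3 CPM in wild type against 19.99 and 21.8 CPM in Shh null. Its groups did not overlap, but the difference did not pass the test (log2 fold change −0.22 ± 0.13 SE; limma adjusted p = 0.412). Of 17 tested FOXM1 targets, limma, edgeR and DESeq2 each called 0 in either direction, while at an unadjusted p under 0.05 limma had 3 lower and 0 higher, in a table where 18.5% of all tested genes had such a p. The summed level of these targets was 3782 and 3919 CPM in wild type against 3446 and 3494 CPM in Shh null.

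The broadly used members of the FOXN and FOXJ classes were not called. Foxn3, a checkpoint repressor, was at 44.5 and 44.5 CPM in wild type against 46.2 and 50.5 CPM in Shh null. Its relative Foxn2 was at 36.1 and 35.4 CPM in wild type against 28.9 and 33.6 CPM in Shh null. Neither was called (limma adjusted p = 0.603 and 0.434). Foxj3 was at 45.9 and 45.7 CPM in wild type against 50.9 and 47.6 CPM in Shh null, and Foxj2 at 4.597 and 6.28 CPM against 5.60 and 5.58 CPM (adjusted p = 0.653 and 0.924). The Foxj2 groups overlapped, and both Shh null values lay between the wild-type ones.

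Foxc1 and Foxi2 were the expressed members with more restricted known use. Foxc1, which acts in skeletal and vascular mesenchyme (chromosome 13, 31806633 to 31812476, plus strand), was at 8.28 and 5.78 CPM in wild type against 5.43 and 4.48 CPM in Shh null. Both Shh null libraries were lower, but wild type 2 was nearer to Shh null 1 than to wild type 1 (log2 fold change −0.42 ± 0.20 SE; limma adjusted p = 0.291). Without wild type 1 the value was −0.19 and without wild type 2 it was −0.64. The sum of 11 endothelial markers, cells in which Foxc1 is also used, was 239 and 305 CPM in wild type against 281 and 284 CPM in Shh null, and 0 of the 11 were called by limma, edgeR or DESeq2 (0 at an unadjusted p under 0.05). Foxi2, a gene of surface ectoderm, was at 2.77 and 1.87 CPM in wild type against 2.74 and 3.34 CPM in Shh null, with overlapping groups (adjusted p = 0.483). The sum of 11 surface ectoderm markers was 402 and 392 CPM in wild type against 444 and 458 CPM in Shh null. Limma, edgeR and DESeq2 called 0 of these markers, while 3 had higher values with an unadjusted p under 0.05.

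**Figure D2:**
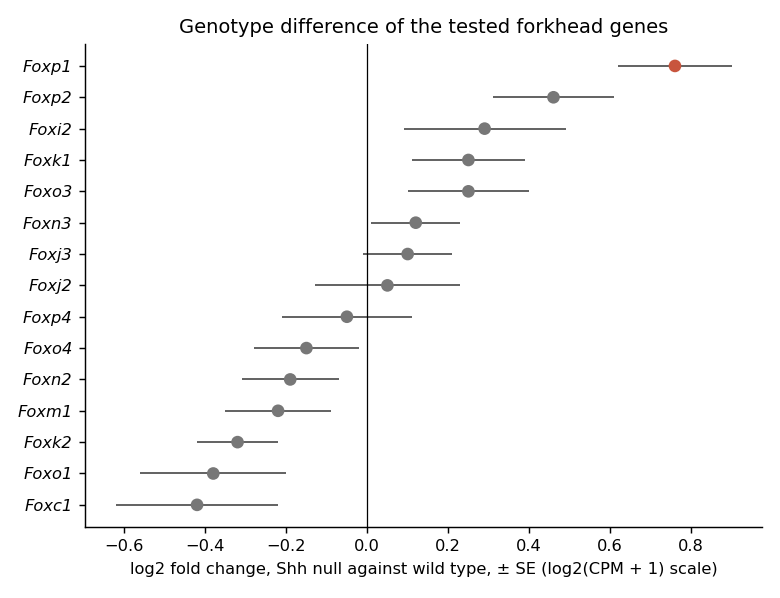
Log2 fold change of Shh null against wild type with its standard error (bars) for the 15 tested forkhead genes, on the log2(CPM + 1) scale from limma. The red point is the called gene Foxp1 at 0.76, and the grey points, from Foxc1 at −0.42 to Foxp2 at 0.46, were not called.

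Most of the forkhead genes known for hedgehog dependence in other organs were near the detection limit in this tissue. A list of such genes had 10 measured members, of which 2, Foxc1 and Foxm1, were tested and neither was called (0 by limma, edgeR and DESeq2, and 0 at an unadjusted p under 0.05). In 6 of the 10 both Shh null libraries were below both wild-type ones, in 2 they were above, and in 2 the groups overlapped. Over all genes in the table these shares were 22.4% for lower and 24.9% for higher. The list was drawn up with earlier results of these data known, and it was made of genes that hedgehog signalling is known to sustain, so the direction is no independent evidence.

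Foxd2, a mesenchymal gene, had the lowest unadjusted p of the 22 low members in limma with no filter (chromosome 4, 114906282 to 114908873, minus strand). It had 22 and 15 reads in wild type against 1 and 7 reads in Shh null, which is 0.772 and 0.826 CPM against 0.0415 and 0.320 CPM. The wild-type libraries were close to each other, and both Shh null libraries lay below them. The pooled reads differed 4.56-fold (95% exact binomial interval 2.09 to 11.3, counting error only). The gene did not reach the filter. With no filter, limma gave an adjusted p of 0.103, edgeR 0.143 and DESeq2 0.322. The authors' deposited table, in contrast, listed Foxd2 with a log2 fold change of −2.15 and a false discovery rate of 0.0282. That table had 2 of the 37 members under 0.05, the other being Foxp1 (log2 fold change 0.77, false discovery rate 0.000187), against 4.01% of all its matched genes. The 250 bases before the Foxd2 start site are shown because it is the 1 low member listed under 0.05 in the authors' deposited table. They hold 0 matches to the forkhead core.
Foxd2, chr4:114908899-114909148, minus strand: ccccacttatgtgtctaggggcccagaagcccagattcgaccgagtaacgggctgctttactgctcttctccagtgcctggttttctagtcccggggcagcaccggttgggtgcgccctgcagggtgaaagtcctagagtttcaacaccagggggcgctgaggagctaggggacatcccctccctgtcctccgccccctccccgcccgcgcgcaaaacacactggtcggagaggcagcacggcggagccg

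The remaining genes of the hedgehog list had fewer reads. Foxf2, which acts in gut and palate mesenchyme, had 6 and 3 reads in wild type against 0 and 1 in Shh null. Its close relative Foxf1, needed for lung and gut mesenchyme, had 3 and 12 reads in wild type against 0 and 5 in Shh null, with overlapping groups. Foxc2, a gene of lymphatic and skeletal mesenchyme, had 22 and 18 reads in wild type against 7 and 15 in Shh null. The pooled Foxc2 reads differed 1.79-fold (95% exact binomial interval 1.04 to 3.17), while Shh null 2 with 0.686 CPM came near wild type 1 with 0.772 CPM. Foxl1, a gene of the mesenchyme under the gut epithelium, had 2 and 2 reads in wild type against 0 and 1 in Shh null, and Foxd1, a gene of kidney stroma, had 0 and 4 against 1 and 0. Foxa2, the floor plate and endoderm gene, had 0 reads in both wild-type libraries and 2 and 4 in Shh null, and Foxq1 had 2 and 0 against 2 and 5. None of these genes was called with no filter on low values by limma, edgeR or, where it gave an adjusted p, DESeq2.

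**Figure D3:**
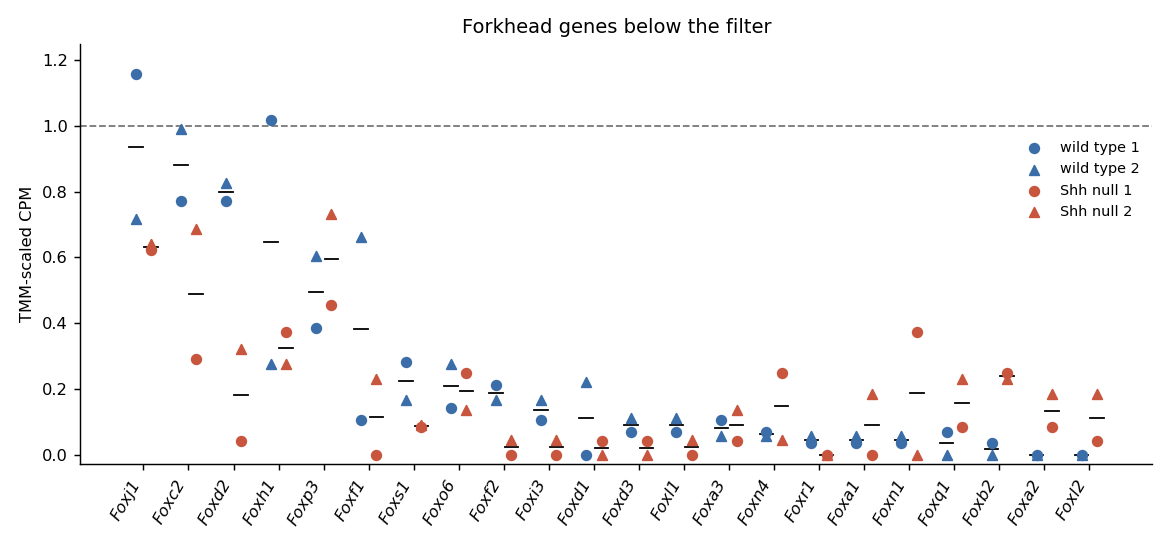
Level of the 22 forkhead genes below the filter in TMM-scaled CPM, ordered by their wild-type mean. Blue marks are wild type, red marks Shh null, circles replicate 1, triangles replicate 2, bars the means of 2 libraries and the dashed line 1 CPM. Only wild type 1 crossed that line, for Foxj1 (1.16 CPM) and Foxh1 (1.02 CPM), and the Foxd2 marks of wild type (0.772 and 0.826 CPM) stand clear of those of Shh null (0.0415 and 0.320 CPM).

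The other low members are mostly known from tissues outside the limb bud. Foxj1, the master gene of motile cilia, stood just outside the filter with 1.16 and 0.716 CPM in wild type against 0.622 and 0.640 CPM in Shh null, or 33, 13, 15 and 14 reads. Foxh1, the partner of SMADs in Nodal signalling, had 29 reads in wild type 1 against 5, 9 and 6 in the other libraries, so that 1 library set its mean. Foxi2 stood just inside the filter. Foxs1, a gene of perivascular cells, had 8 and 3 reads in wild type against 2 and 2 in Shh null. Foxi3, a gene of ectodermal placodes, had 3 and 3 against 0 and 1, and Foxd3, a neural crest gene, had 2 and 2 against 1 and 0. The neural gene Foxb2 had 1 and 0 reads in wild type against 6 and 5 in Shh null. Foxl2, the ovarian member, had 0 and 0 against 1 and 4, and it overlaps Foxl2os (17 and 10 against 19 and 26 reads) at its start on the opposite strand. Foxn1 of the thymus epithelium had 9 reads in Shh null 1 and at most 1 in each other library. Foxa1, Foxa3, Foxn4 and Foxr1 had 2 to 10 reads in all 4 libraries together.

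Across the 22 low members, the sum over the 4 libraries ran from 2 reads for Foxr1 to 75 for Foxj1, with a median of 10. Both Shh null libraries were lower in 9 and higher in 4, against 14.5% and 24.2% of the 4488 genes below the filter. The remaining 9 overlapped. With no filter, limma called 0 of them, edgeR 0 and DESeq2 0, where these fits called 0.96%, 2.77% and 3.63% of the genes they gave an adjusted p. At an unadjusted p under 0.05 there were 3 members in limma and 3 in edgeR (Foxd2 and Foxb2 in both, Foxf2 in limma and Foxa2 in edgeR, named after their values were seen). The share of all genes with such a p was not taken for the fits with no filter, so these counts lack a background. In limma with the filter it was 18.5%. DESeq2 gave an adjusted p for 5 of the 22. The low members took 0.732% to 1.27% of the forkhead CPM in a library.

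Of the forkhead genes in the genomic clusters described here, only Foxc1 reached the filter. On chromosome 13, Foxq1 (31556134 to 31560976), Foxf2 (31625816 to 31631403) and Foxc1 (31806633 to 31812476) lie side by side. Per length, Foxc1 was at 1.20 CPM per kb in wild type, against 0.0795 for Foxf2 and 0.00725 for Foxq1, which had 2 and 0 reads there. The protein-coding model A530084C06Rik lies over part of Foxq1 on the opposite strand, and its part in the low count was not tested. The neighbouring genes Exoc2 (72.0 ± 3.24 and 64.4 ± 0.0942 CPM) and Gmds (9.10 ± 1.55 and 8.95 ± 0.887 CPM) were not called (limma adjusted p = 0.430 and 0.976), and Hus1b was below the filter. On chromosome 8, Foxf1 (121084386 to 121088144), Foxc2 (121116171 to 121118895) and Foxl1 (121127940 to 121130644) form the other cluster, and all 3 were below the filter at 0.159, 0.324 and 0.0333 CPM per kb in wild type. GENCODE places the protein-coding model Gm20388 over all 3 on the same strand. Whether the counting used that model is not known, so its part in the low counts was not tested. Next to this cluster Mthfsd (26.9 ± 2.14 and 23.7 ± 0.596 CPM) and Fbxo31 (9.77 ± 0.911 and 11.2 ± 1.47 CPM) were not called (adjusted p = 0.490 and 0.596). The antisense RNA Fendrr beside Foxf1 had 0 reads in wild type against 1 and 1 in Shh null.

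Start-site sequences were at hand for 24 of the 37 members, 10 of them tested, with 29 windows in all. The median number of CpG dinucleotides in the 250 bases before the start was 28 for the 12 windows of tested members, 16 for the 17 windows of low members and 6 for all windows. The range among tested members was wide, from 48 for Foxk2 to 3 for Foxi2 and for the second Foxp1 stretch printed above. A forkhead core was found in 7 of the 29 windows (24.1%), against 15.7% of all windows. The 7 belong to Foxa1, Foxa2, Foxi2, Foxj3, Foxp3 and Foxp1, the last with more than 1 window. All 250 bases of that Foxp3 window are exon. The words were chosen after the sequences had been seen, so the shares are no evidence of enrichment.

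**Figure D4:**
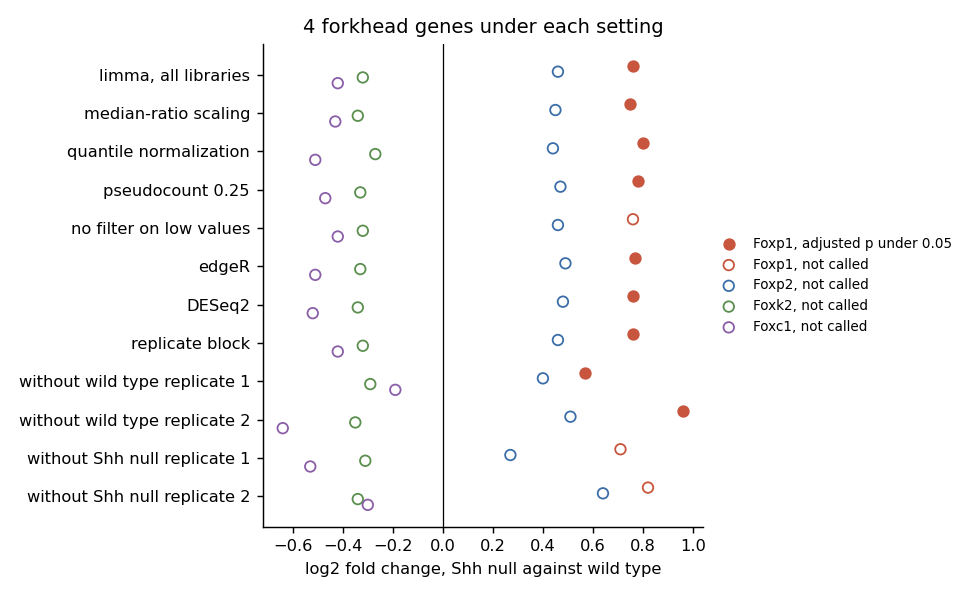
Log2 fold change of Shh null against wild type for Foxp1 (red), Foxp2 (blue), Foxk2 (green) and Foxc1 (purple) under the fit to all libraries and each of 11 alternatives. Filled points had an adjusted p under 0.05 and open points did not. Foxp1 lay between 0.57 and 0.96 and was called in 8 of the 11 alternatives, whereas Foxp2, Foxk2 and Foxc1 were called in 0.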

How the data were processed

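Total RNA from forelimbs was extracted with TRIzol and sequenced on Illumina libraries, per the labels' protocols. Per the submitters' processing notes, the tools were HTSeq 0.5.4p5, TopHat2 2.0.9, edgeR 3.4.2 and SAMtools, and the build was mm10. Which annotation and which strand setting served for counting is not given in the sources used here. The authors deposited 1 signal value per gene and library. Values in a column came in whole steps (100% within 0.001 reads), so whole reads were recovered, and TMM scaling of these reads gave the deposited values back, which makes the unit TMM-scaled CPM. The wild-type libraries held 29620468 and 18456502 reads, the Shh null ones 23206944 and 21489093. The authors deposited a second table with log2 fold changes, p-values and false discovery rates.

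The genotype label gave the groups, and titles gave the replicate numbers. Genes with at least 1 CPM in at least 2 libraries (13224) were fitted as log2(CPM + 1) in limma 3.58.1 (R 4.3.3) on genotype alone and adjusted by Benjamini-Hochberg. An adjusted p under 0.05 was a call. Folds are ratios of mean CPM, and fitted log2 fold changes understate those of low genes. Alternatives were median-ratio and quantile scaling, a pseudocount of 0.25, no filter, edgeR 4.0.16 and DESeq2 1.42.0 on recovered reads, the replicate block and each library left out. The fits were tested on simulated counts. Exon lengths and coordinates are from GENCODE M21, and start-site sequences from RefSeq (GRCm38.p6). With 2 libraries a group, the smallest two-sided p of an exact permutation test is 0.333. Named genes were all members, called genes of the lists and the neighbours of the forkhead clusters. The members, lists and markers were chosen with earlier results of these data known.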

Additional observations from a re-analysis of the deposited data

How the results depend on the processing

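The Foxp1 call, 1 forkhead gene higher, became 0 with no filter on low values and ranged from 0 to 1 when 1 library was left out. Over all genes, the 164 higher and 164 lower calls became 79 and 91 with no filter, and 292 were lower by DESeq2. Leaving out 1 library gave 15 to 386 higher and 41 to 416 lower, the fewest without Shh null 1 (15 and 41), then without Shh null 2 (39 and 60), while 271 were higher without wild type 1 and the most came without wild type 2 (386 and 416). In fits chosen after seeing the data, edgeR with no filter called 266 higher and 225 lower, and DESeq2 with no filter 237 and 282. The cause of these shifts was not tested. Replicate numbers come from the titles alone. Same-numbered libraries did not deviate together (r = −0.203 over tested genes, which are not independent). With the replicate block 220 were called higher and 176 lower, 1 forkhead gene higher (Foxp1, adjusted p = 0.00443) among them. With the numbers crossed, 641 were higher and 745 lower, of which 2 and 1 were forkhead genes. This crossed pairing was also chosen after seeing the data, and no label gives it. Among the 15 tested members, signs changed for Foxj2 (−0.07 with quantile normalization, −0.14 to 0.24 when 1 library was left out) and Foxp4 (−0.22 to 0.11). The sign also changed for the neighbour Gmds (−0.17 to 0.14), while Foxo4 reached 0.00 (−0.30 to 0.00). None of these was called in any of the 11 alternatives. The expressed members numbered 19 at a minimum of 0.5 CPM and 15 at 2 CPM. Low members rest on 2 to 75 reads, and in 8 of the 22 the sign of the difference changed when 1 library was left out.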

Other observations

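Few genes that work with forkhead proteins were called. Of 21 tested partners and regulators, such as the AKT kinases that inhibit FOXO proteins and the TLE corepressors, limma called 0 (1 higher and 2 lower at an unadjusted p under 0.05), edgeR called 0 and DESeq2 called 1 lower. Of 5 tested motile cilium genes that FOXJ1 is known to drive, limma, edgeR and DESeq2 called 0, with 1 higher and 1 lower at an unadjusted p under 0.05. The other 10 measured genes of that list were below the filter, as Foxj1 was.

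Among genes listed as markers of other tissues in which forkhead genes are used, a few were called. A rise does not show which cells made the RNA, and limb bud cells may be among them. Pax1 (log2 fold change 1.78 ± 0.18 SE) and Pax9 (1.17 ± 0.21) rose among 7 tested trunk mesoderm genes (limma adjusted p = 0.00112 and 0.0193). In that list 2 others were lower at an unadjusted p under 0.05, the median log2 fold change was −0.04, and the summed level was 136 and 110 CPM in wild type against 119 and 97.4 CPM in Shh null. Erbb3 (0.80 ± 0.14) rose among 2 tested genes of neural crest and glia (adjusted p = 0.0192). Cx3cr1 (1.02 ± 0.20) rose among 4 tested macrophage genes and Ttr (0.95 ± 0.20) among 5 tested endoderm genes (adjusted p = 0.0331 and 0.0357). In limma all 4 macrophage genes were higher at an unadjusted p under 0.05, which 18.5% of all tested genes had in either direction. Their median log2 fold change was 0.71, and the list summed to 15.1 and 12.9 CPM in wild type against 25.3 and 24.2 CPM in Shh null. The endoderm list summed to 62.0 and 63.9 CPM in wild type against 63.8 and 121 CPM, high in Shh null 2 alone. The calls of Pax9, Erbb3, Cx3cr1 and Ttr ended when either Shh null library was left out. Without the first and without the second, the log2 fold changes were 0.99 and 1.35 (Pax9), 0.77 and 0.82 (Erbb3), 0.79 and 1.24 (Cx3cr1), and 1.09 and 0.82 (Ttr). With no filter the limma calls of Erbb3, Cx3cr1 and Ttr also ended (adjusted p = 0.0533, 0.0782 and 0.0628). Quantile normalization ended those of Cx3cr1 and Ttr (limma adjusted p = 0.0750 and 0.0812), and DESeq2 did not call Ttr (adjusted p = 0.0544). Limma, edgeR and DESeq2 called 0 of 3 tested perivascular and 0 of 2 tested lymphoid genes, with 1 and 1 higher at an unadjusted p under 0.05, and the 3 measured neural tube genes summed to 0.165 to 0.562 CPM in a library.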
